A study of Mus musculus with 22 samples.

Results

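Chemokines are small secreted proteins that guide leukocytes, and their receptors are G protein-coupled receptors on the cells that respond. The genes described here are those of the deposited table whose symbol is that of a CC, CXC, CX3C or XC chemokine ligand (with Pf4 and Ppbp, the platelet chemokines) or of a numbered CC, CXC or XC receptor. By symbol, 59 rows of 22520 genes match, 41 of ligands and 18 of receptors. Description and testing required that 2 or more libraries reach 1, which leaves 44 genes, 32 ligands and 12 receptors. The other 15 stayed low and are not described: Ccl1, Ccl20, Ccl24, a second row of Ccl25, Ccl26, Ccl27b, Ccl28, Ccr3, Ccr4, Ccr8, Ccr9, Ccr10, Cxcl2, Cxcl3 and Cxcr1. Of these, Ccl26 was listed at 0 in all 22 libraries, and Cxcl2 reached the highest single value, 1.99. The table uses older symbols: Cxcr7 is the gene now named Ackr3, and its Ccl21b and Ccl21c carry the identifiers of 2 near-identical copies that the newer annotation names Gm21541 and Ccl21b.

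The study sequenced polyadenylated RNA from whole lungs of neonatal mice kept in room air or in hyperoxia, and its title asks about sex-specific differences in hyperoxic lung injury. Lungs were taken at postnatal day 7 (PND7) or 21 (PND21). At PND7 there were 2 male and 3 female room air libraries, while hyperoxia had 3 male and 2 female ones. Each combination of sex and oxygen had 3 libraries at PND21. Strain, oxygen concentration, length of exposure and pooling of animals are not given in the sources used here. Nothing in the labels says that libraries came from separate animals, so p-values measure only the spread between these samples, which may be technical.

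Each ligand binds 1 or several receptors. Ccl2, Ccl7 and Ccl12 act on Ccr2, the receptor by which inflammatory monocytes leave the bone marrow and enter tissue, and Ccl3, Ccl6, Ccl7 and Ccl9 act on Ccr1 of monocytes and other myeloid cells. Another set runs continuously in healthy tissue: Cxcl12 with Cxcr4 retains and positions many cell types, and Cxcl13 with Cxcr5 and Ccl19 and Ccl21 with Ccr7 organise B cells, T cells and dendritic cells in lymphoid tissue. In the lung, resident epithelium and macrophages make several chemokines themselves, and monocyte recruitment is a known part of the response to oxygen injury.

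Values are FPKM (fragments scaled for transcript length and library size), quantile normalized, so that levels can be compared between genes per length while the sequencing depth is unknown. Library sums ran from 529406 to 533090, and no pair of libraries looked like 1 library deposited again (correlation at most 0.9966 across genes on the log2 scale). Lung identity was clear, with Sftpc, the surfactant protein C gene of alveolar type 2 cells, at 8742 or more in each library. In 6 libraries skeletal muscle transcripts were high (Mylpf, a fast muscle myosin light chain, above 50), 4 of them at PND7: male room air replicate 2, female room air replicate 2, male hyperoxia replicate 1 and female hyperoxia replicate 2. Transcripts of stratified squamous epithelium, such as the keratin Krt13, also varied widely. Their summed level at PND7 was 0.642 to 741 in room air and 0.677 to 923 in hyperoxia. At PND21 it was 0.125 to 3643 and 0.0832 to 84.6. The part of this tissue in the chemokine values was not tested. Replicate numbers here follow the order of deposit. At PND7 the title numbers of room air libraries (17 to 23) precede those of hyperoxia libraries (26 to 33), and what that order stands for cannot be told apart from oxygen.

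Promoter windows are shown for 4 genes on which the results turn: the neighbours Ccl9 and Ccl6, which were high together, their receptor Ccr1, and Cxcl10, a classical interferon-induced ligand. Each is the 250 bases before the RefSeq start site on build GRCm38.p6, 5′ to 3′ on the strand of the gene, and all 4 genes lie on the minus strand. Capitals mark matches, on either strand, to 4 motifs: GGANTTTCC (a core of the NF-kB site), GAAANNGAA (a core of the interferon-stimulated response element), GAGGAA (a core bound by the myeloid factor PU.1) and TGANTCA (AP-1).
Ccl9, chr11:83578637-83578886: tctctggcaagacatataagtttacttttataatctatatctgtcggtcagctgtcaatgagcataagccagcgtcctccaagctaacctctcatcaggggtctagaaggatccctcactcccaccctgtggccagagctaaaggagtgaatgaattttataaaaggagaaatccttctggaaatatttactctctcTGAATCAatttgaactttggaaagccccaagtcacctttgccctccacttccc
Ccl6, chr11:83593088-83593337: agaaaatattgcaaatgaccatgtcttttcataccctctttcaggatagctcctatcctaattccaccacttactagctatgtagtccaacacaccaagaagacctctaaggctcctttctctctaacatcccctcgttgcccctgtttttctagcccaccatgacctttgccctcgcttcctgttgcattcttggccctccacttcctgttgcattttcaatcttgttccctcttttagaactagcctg
Ccr1, chr9:123968693-123968942: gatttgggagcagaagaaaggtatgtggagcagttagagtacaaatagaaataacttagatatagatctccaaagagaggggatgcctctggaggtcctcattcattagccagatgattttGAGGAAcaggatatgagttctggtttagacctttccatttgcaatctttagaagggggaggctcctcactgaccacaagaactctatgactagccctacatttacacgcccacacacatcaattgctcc
Cxcl10, chr5:92348890-92349139: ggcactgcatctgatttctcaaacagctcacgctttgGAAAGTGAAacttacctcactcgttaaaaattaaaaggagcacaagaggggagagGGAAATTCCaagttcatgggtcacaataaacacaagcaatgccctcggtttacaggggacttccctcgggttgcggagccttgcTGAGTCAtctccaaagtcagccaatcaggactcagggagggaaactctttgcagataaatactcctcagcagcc

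Counted from the start site, the Cxcl10 window holds the GAAANNGAA match from base -213, the GGANTTTCC match from -158 and the TGANTCA match from -74. Ccl9 holds TGANTCA from -53 and Ccr1 holds GAGGAA from -129, while the Ccl6 window holds none of the 4. Ccl9 and Ccl6 share a run of 13 bases, gccctccacttcc, against 10 bases or fewer in the other 5 pairs of these windows. RefSeq windows were found for 31 of the 44 genes (35 windows). GAAANNGAA occurred in 17.1% of those windows and in 7.13% of all 32851 windows of the same length, and GGANTTTCC in 5.71% and 1.07%. For GAGGAA the shares were 37.1% and 23.3%, and for TGANTCA 11.4% and 6.75%. The GAAANNGAA matches lie before Ccl19, Ccl3, Ccr2, Cxcl10, Cxcl14 and Cxcl9, and in the Ccl3 window that match overlaps one to GAGGAA. A match describes letters only, and no match says only that these letters are not in this window.

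At PND7, 12 of the 44 genes were higher and 4 lower in hyperoxia as the mean of both sexes. The higher ones included Cxcl17, Ccl9, Ccl2, Ccl6, Ccr1, Ccl3, Ccr2, Ccl12, Cxcl5, Ccl7 and Cxcr7, and the lower ones were Cxcr4, Cxcr5, Ccl21c and Cxcl12. Calls rest on limma with p-values adjusted by Benjamini-Hochberg (threshold 0.05) over all 14200 genes that passed the filter on low values. The 12 higher genes are 27.3% of the 44, where 9.79% of all tested genes were called higher, and the 4 lower ones are 9.09%, where 13.6% of all were called lower. Of the 12, Ccl7 and Cxcl5 passed the filter on low values only through the hyperoxia libraries of PND7, the group in which they are high, so their place among the tested genes is not independent of the difference. The median log2 fold change was 0.33 over the 44 genes and -0.0096 over all tested genes, and 32 of the 44 were positive. All libraries of one oxygen group lay above all of the other for 11 of the genes in the higher direction (5.8% of all tested genes) and for 2 in the lower direction (12% of all). The 2 were Cxcr4 and Cxcl12. Fold changes are on the log2(FPKM + 1) scale, which understates the change of genes near or below 1.

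**Figure D1:**
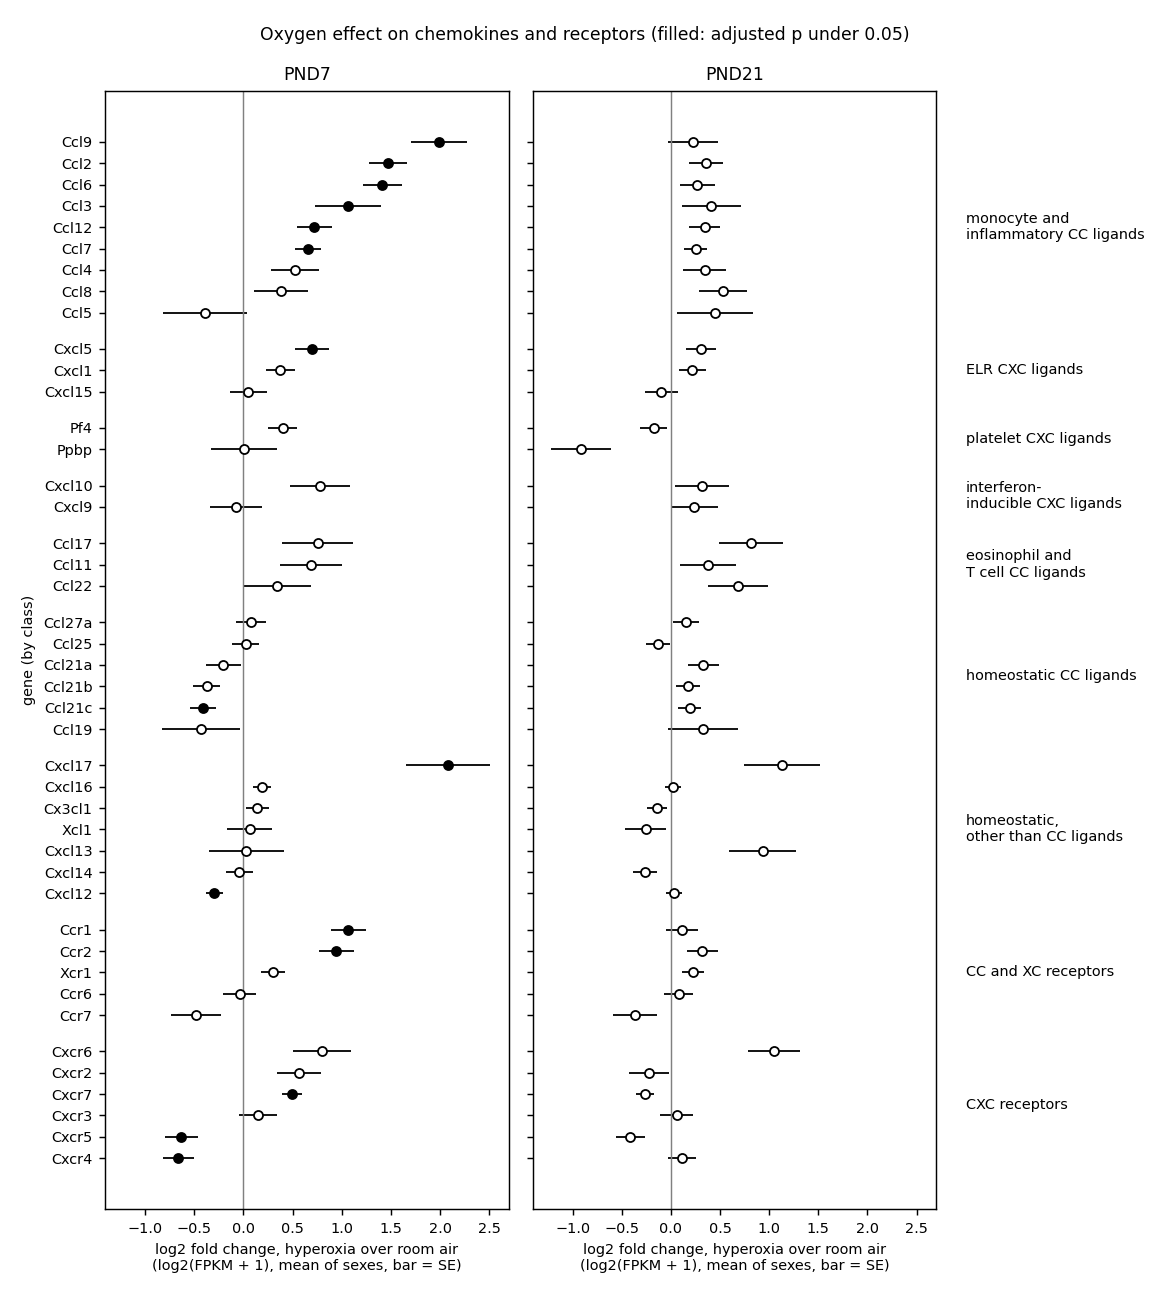
Log2 fold change of hyperoxia over room air (horizontal axis, log2(FPKM + 1) scale, mean of sexes, bars are SE) for 43 genes by class at PND7 and PND21; filled circles have an adjusted p under 0.05. Of the 9 monocyte and inflammatory CC ligands 6 are filled at PND7, and no circle is filled at PND21.

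Of the 9 monocyte and inflammatory CC ligands 6 were higher and 0 lower, and the class had a median log2 fold change of 0.72. Among all tested genes 9.79% were higher, and 1 of the 6, Ccl7, passed the filter only through the hyperoxia libraries of PND7. Ccl2, the main monocyte attractant, lay at 1.37 and 1.37 FPKM in the male and 1.41, 1.26 and 0.838 in the female room air libraries. Hyperoxia males had 4.71, 3.19 and 4.45, and hyperoxia females 8.21 and 5.56. The groups did not overlap, and both female hyperoxia libraries were above every male one. The log2 fold change of Ccl2 was 1.47 (SE 0.19, limma adjusted p = 9.7e-05).

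Ccl7, another ligand of Ccr2, was low throughout, at 0.435 to 0.752 in the 5 room air libraries. Hyperoxia males had 1.09, 0.963 and 1.06 and hyperoxia females 2.85 and 1.82. Again no hyperoxia library fell into the room air range, and the log2 fold change was 0.66 (SE 0.13, adjusted p = 0.0025). Outside that group Ccl7 reached at most 0.989, below the filter's minimum of 1. Ccl12, the mouse relative of Ccl2 in the same chromosome 11 cluster, lay at 3.09 and 1.83 in room air males and at 2.53, 1.74 and 2.15 in room air females. It was at 4.38, 3.81 and 3.86 in hyperoxia males and at 6.57 and 3.42 in hyperoxia females, all above the room air libraries. Its log2 fold change was 0.72 (SE 0.18, adjusted p = 0.0095), but the call was lost without female hyperoxia replicate 1, without male room air replicate 2 and without the muscle-rich libraries.

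Ccl6 and Ccl9 are CC ligands made by myeloid cells of rodents. Ccl6 was the most abundant CC ligand in hyperoxia at PND7, with 208, 139 and 121 FPKM in males and 140 and 99.2 in females. Room air libraries had 43.9 and 49.4 in males and 55.5, 43.8 and 60.6 in females, so the groups were well apart (log2 fold change 1.41, SE 0.20, adjusted p = 0.00016). Ccl9 lay between 2.27 and 3.76 in the 5 room air libraries. It reached 38.3, 12.1 and 13.1 in hyperoxia males and 18.8 and 6.90 in hyperoxia females, and its log2 fold change of 1.99 (SE 0.29, adjusted p = 0.00020) was the largest among the CC ligands. The highest Ccl6 and Ccl9 values came from the same library, male hyperoxia replicate 1.

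Ccl3, an inflammatory ligand of Ccr1, was more scattered. Room air values were 0.872 and 0.336 in males and 0.490, 0.348 and 1.34 in females, and hyperoxia values 5.47, 1.90 and 1.21 in males and 4.42 and 1.06 in females. These groups overlap, and the call (log2 fold change 1.06, SE 0.33, adjusted p = 0.029) was lost in 7 of 30 alternative analyses. Its neighbour and relative Ccl4, at 0.0956 to 1.54 in room air and 0.436 to 2.46 in hyperoxia, was not called, nor were Ccl8 and Ccl5. Ccl8 was listed at 0 in 4 of the 5 room air libraries. For Ccl5, a ligand of T cells and natural killer cells, the log2 fold change was -0.39 (SE 0.43, adjusted p = 0.55), opposite in sign to the other 8 genes of the class.

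Ccr1 and Ccr2, receptors of these ligands, were higher as well. Ccr1 lay at 1.57 and 1.63 in male and 2.14, 1.55 and 2.37 in female room air libraries, and at 6.19, 4.85 and 3.61 in male and 7.23 and 3.27 in female hyperoxia libraries. Its groups did not overlap (log2 fold change 1.07, SE 0.18, adjusted p = 0.00076). Ccr2 lay at 2.72 and 3.02 in room air males and at 4.50, 3.78 and 3.26 in room air females. In hyperoxia it reached 6.37, 7.87 and 5.61 in males and 11.3 and 5.75 in females, again without overlap (log2 fold change 0.94, SE 0.18, adjusted p = 0.0015). Xcr1, the receptor of cross-presenting dendritic cells (log2 fold change 0.30), Ccr6 (-0.04) and Ccr7 (-0.48) did not pass the test.

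**Figure D2:**
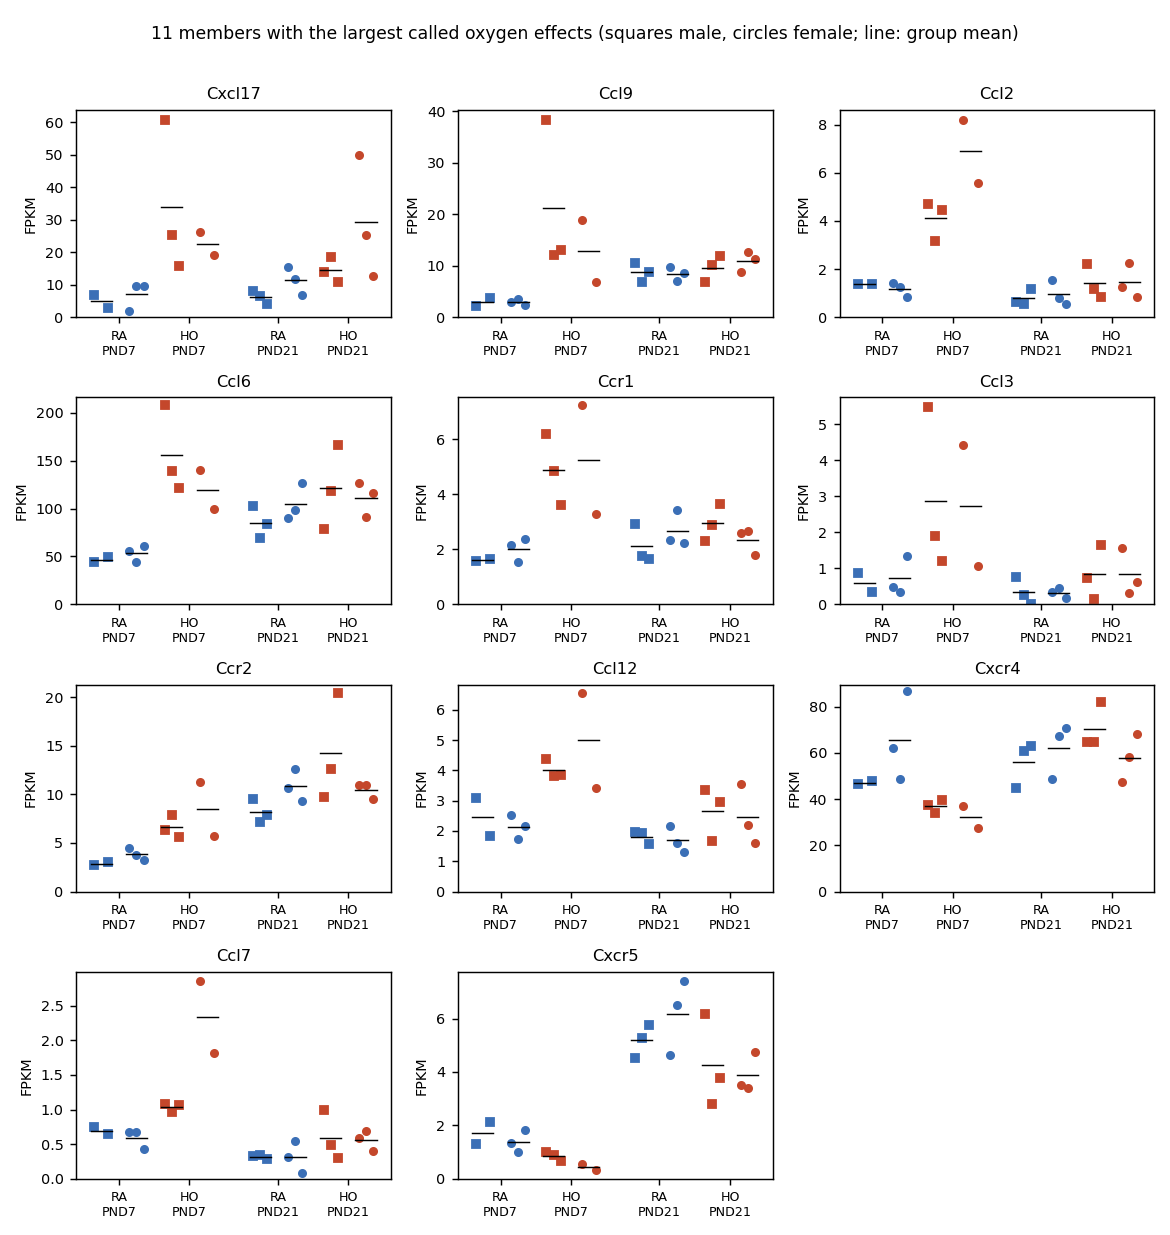
FPKM (vertical axis, linear from 0) of 11 genes with the largest called oxygen effects, by oxygen and day; blue is room air, red hyperoxia, squares male, circles female, lines group means. At PND7 the red points of Ccl2, Ccl6, Ccl9, Ccr1 and Ccr2 lie above all blue points, and those of Cxcr4 below them; at PND21 red and blue points of each gene overlap.

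The largest log2 fold change of all 44 genes belonged to Cxcl17, a chemokine-like protein of mucosal epithelium. It lay at 6.87 and 2.99 in room air males and at 2.04, 9.52 and 9.67 in room air females. Hyperoxia males had 60.7, 25.2 and 15.7 and hyperoxia females 26.1 and 19.2. No library overlapped (log2 fold change 2.08, SE 0.43, adjusted p = 0.0029). The symbol overlaps an antisense transcript in the annotation, 4732471J01Rik, and whether reads were counted by strand is not given in the sources used here. Of the alveolar and club cell markers, 1 of 10 was called higher at PND7 (10%, against 9.79% of all tested genes). It was Sftpa1, with a log2 fold change of 0.54, and the list's median was -0.02. The part of epithelial cells in the Cxcl17 difference was not tested.

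Among the neutrophil-attracting CXC ligands, only Cxcl5 was called. It was at most 0.195 in 4 of the 5 room air libraries and at 1.01 in the fifth, female replicate 3. Hyperoxia libraries ran from 0.594 to 1.18 with a median of 1.09 (log2 fold change 0.70, SE 0.18, adjusted p = 0.0095). Outside hyperoxia at PND7 a single library reached 1. The Cxcl5 call was lost without the muscle-rich libraries. Cxcl1 lay at 0.399 to 0.965 in room air and 0.730 to 2.20 in hyperoxia, with an adjusted p of 0.076. Cxcl15 or lungkine, made by lung epithelium, was by far the most abundant of the 44 genes at PND7, at 315 to 415 in room air and 231 to 538 in hyperoxia, and it was not called. Cxcr2, the neutrophil receptor of Cxcl1 and Cxcl5, lay at 0.545 to 0.877 in room air and at 1.02 to 2.30 in hyperoxia. Its groups did not overlap although its adjusted p was 0.078.

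Cxcl10 and Cxcl9, ligands of Cxcr3 on activated T cells, were not called as the mean of sexes. Cxcl10 had 2.76 and 0.934 in room air males, 0.739, 0.601 and 0.360 in room air females, 1.12, 1.78 and 2.58 in hyperoxia males, and 7.97 and 1.25 in hyperoxia females. The one high library, female hyperoxia replicate 1, also had the highest summed level of the 14 interferon-stimulated genes, 417 against 65.1 to 117 in the other 9 libraries at PND7. Isg15 alone stood at 91.7 there and at 10.6 in the other female hyperoxia library. In females alone Cxcl10 was called (log2 fold change 1.53, SE 0.43, adjusted p = 0.045), and the call was lost in 17 of 30 alternatives. Without the muscle-rich libraries Cxcl10 was called as the mean of sexes (log2 fold change 1.14, adjusted p = 0.014), but in that fit the high library is the only female hyperoxia library at PND7 and male room air is also a single library. The Cxcl10 gene overlaps Art3 on the opposite strand, and of the other genes whose values are printed, Ccl2 (Gm17268), Ccl6 (E230016K23Rik), Ccl19 and Ccl21a (4930578G10Rik), Ccl21b (Gm13307), Ccl27a (Il11ra1), Cxcl15 (Gm24322), Cxcl16 (Zmynd15), Cxcr5 (Bcl9l), Cxcr6 (Fyco1) and Xcl1 (Gm20743) have such a partner. Without strand in the counting, reads of these pairs cannot be told apart.

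Cxcr4, Cxcr5, Ccl21c and Cxcl12 were lower in hyperoxia at PND7. Cxcr4, the receptor of Cxcl12, had 46.3 and 48.0 in room air males and 62.0, 48.6 and 86.6 in room air females. It fell to 37.6, 34.2 and 39.6 in hyperoxia males and to 36.9 and 27.5 in hyperoxia females, all below the room air range (log2 fold change -0.66, SE 0.16, adjusted p = 0.0066). Its ligand Cxcl12 was lower by less, from 54.2 to 62.5 in room air to 44.3 to 54.2 in hyperoxia (log2 fold change -0.30, SE 0.09, adjusted p = 0.024), a call lost in 6 of 30 alternatives. The other Cxcl12 receptor, Cxcr7, an atypical receptor that takes up the ligand without classical signalling, went the opposite way. It lay at 16.2 to 20.1 in room air and at 24.5 to 30.1 in hyperoxia, without overlap (log2 fold change 0.49, SE 0.10, adjusted p = 0.0030).

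Cxcr5, the B cell receptor of Cxcl13, had 1.29 and 2.11 in room air males and 1.33, 0.986 and 1.84 in room air females. Hyperoxia libraries had 1.02, 0.898 and 0.665 in males and 0.532 and 0.309 in females (log2 fold change -0.63, SE 0.17, adjusted p = 0.012). The groups touch at 1 library on each side, and the call was lost without the muscle-rich libraries and without 2 single libraries, male room air replicate 2 and female hyperoxia replicate 2. Cxcl13 itself lay at 0.650 to 2.37 in room air and 0.945 to 2.17 in hyperoxia. The Ccl21 rows were all negative, with log2 fold changes of -0.20 for Ccl21a, -0.37 for Ccl21b and -0.41 for Ccl21c, and only the last was called (SE 0.13, adjusted p = 0.033, lost in 9 of 30 alternatives). How reads were divided among these near-identical copies is uncertain. Ccl19, the other ligand of Ccr7, went from a median of 1.50 to one of 0.888 and was not called.

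Leukocyte markers moved at PND7 in the same libraries. Over all tested genes 9.79% were called higher and 13.6% lower. All 12 markers of monocytes and interstitial macrophages were called higher, and their summed level was 117 to 133 in room air and 207 to 371 in hyperoxia. C1qa, for example, had a log2 fold change of 1.20, and Ly6c2, of inflammatory monocytes, 0.94. Among the PND7 libraries, female hyperoxia replicate 1 had the highest sum of this list, and it also had the highest Ccl2, Ccl7, Ccl12, Ccr1 and Ccr2. Ccl9, Ccl6, Ccl3 and Cxcl17 were instead highest in male hyperoxia replicate 1. B cell markers were lower for 7 of 8 genes, with sums of 35.4 to 66.3 in room air and 18.5 to 27.4 in hyperoxia, and Cd79a had a log2 fold change of -1.21. Mast cell markers were higher for 4 of the 6 tested and lower for 1, neutrophil markers higher for 2 of 9 (sums 132 to 193 and 227 to 540.5), alveolar macrophage markers higher for 2 of 10 (Marco and Chil3), dendritic cell markers higher for 2 of 7 (Itgae and Batf3) and lower for 1 (Clec9a), and T and natural killer cell markers lower for 1 of 11. The part of these cell types in the chemokine differences was not tested. In whole lung RNA, a change in the number of cells of a type and a change in the RNA of each cell cannot be told apart.

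Several of these genes are neighbours. On chromosome 11 a first cluster from 82035571 to 82305690 holds Ccl2, Ccl7, Ccl11, Ccl12, Ccl8 and Ccl1, and 3 of its 5 described genes were higher at PND7. Of all tested genes, 9.79% were called higher. A second, from 83525778 to 83664683, holds Ccl5, Ccl9, Ccl6, Ccl3 and Ccl4, with 3 of 5 higher. The CXC cluster on chromosome 5, from 90759360 to 90905938, had 1 of 5 higher (Cxcl5), and the 3 genes on chromosome 8, Ccl22, Cx3cl1 and Ccl17, had none. Ccl7 and Cxcl5 passed the filter only through the hyperoxia libraries of PND7, in which they are high, so these counts are not independent of the difference. Coordinates are those of GENCODE M21 (GRCm38), and genes were joined where neighbours lay within 300000 bases.

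**Figure D3:**
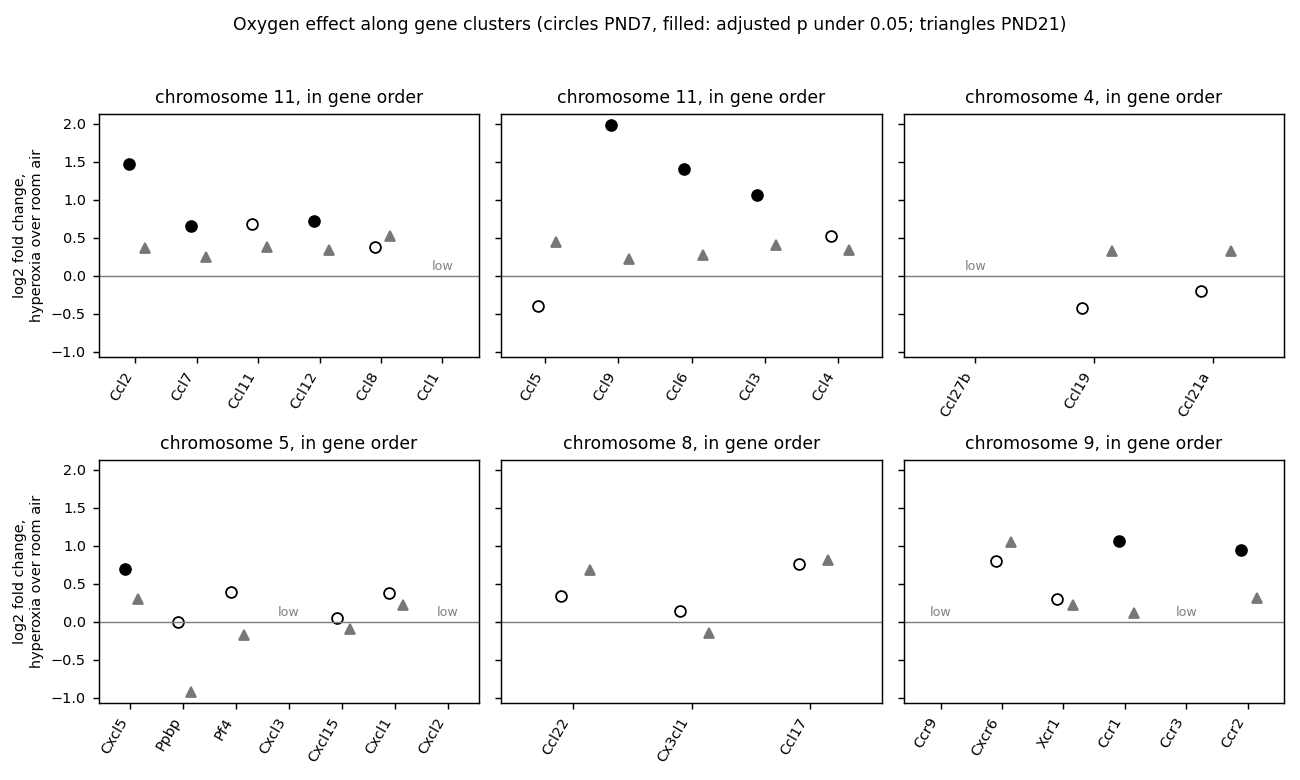
Log2 fold change of hyperoxia over room air (vertical axis) for neighbouring genes in their order along the chromosome; circles are PND7, filled with an adjusted p under 0.05, triangles PND21, and "low" marks genes that did not pass the filter. Within the second chromosome 11 cluster Ccl9, Ccl6 and Ccl3 are filled (1.99, 1.41 and 1.06) and Ccl5 at one end lies at -0.39.

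At PND21 none of the 44 genes was called as the mean of sexes, where 0.282% of all tested genes were, and 11 of the 44 (25%) had an unadjusted p under 0.05, as had 11.5% of all. None was called in males (0.0211% of all genes) or in females (0.0634%) alone. The median log2 fold change was 0.23 over the 44 genes and 0.0082 over all, and 33 of the 44 were positive. Weighting libraries by their estimated quality gave 19 calls at PND21, 12 higher and 7 lower, in place of 0. The share of all genes called in that fit was not computed, so the 19 have no background to be set against. Ccl2 lay at 0.548 to 1.55 in room air and at 0.844 to 2.24 in hyperoxia, Ccl6 at 69.2 to 127 and 78.1 to 166, and Ccr1 at 1.66 to 3.42 and 1.80 to 3.65, each with wide overlap.

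The smallest unadjusted p at PND21 belonged to Cxcr6, a receptor of resident T and innate lymphoid cells that binds the membrane-bound ligand Cxcl16. It had 0.728, 1.05 and 1.56 in room air males and 1.09, 1.71 and 1.56 in room air females, against 2.50, 2.87 and 11.2 in hyperoxia males and 2.69, 2.13 and 4.47 in hyperoxia females. All hyperoxia libraries lay above all room air libraries (log2 fold change 1.05, SE 0.26, adjusted p = 0.10). With a term that set PND21 libraries of title number 10 or more apart from the rest, it was called (log2 fold change 1.31, adjusted p = 0.015). That split was not balanced between room air and hyperoxia. At PND7 its log2 fold change was 0.80 with an adjusted p of 0.057, and values of 0.882 to 2.73 lay above those of 0.394 to 0.566. Cxcl16 itself lay at 31.8 to 38.4 in room air and at 31.9 to 40.5 in hyperoxia at PND21.

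Cxcl17 at PND21 kept the sign it had at PND7, at 3.96 to 15.4 in room air and 10.9 to 49.9 in hyperoxia (log2 fold change 1.13, SE 0.38, adjusted p = 0.24). Ccl17, a ligand of Ccr4 made by dendritic cells, had medians of 5.39 and 11.6, and Ccl22, the other Ccr4 ligand, of 2.24 and 3.70. Ppbp, a platelet chemokine, was at 5.90 to 15.7 in room air and 3.41 to 6.94 in hyperoxia (log2 fold change -0.92, adjusted p = 0.22). It was called lower when the fit held only the PND21 groups (adjusted p = 0.037) and without the muscle-rich libraries (adjusted p = 0.042).

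A single PND21 library, male hyperoxia replicate 1, stood apart for genes of lymphoid tissue. It had Ccl5 at 114, where the other 11 libraries of that day had 11.2 to 23.4, Ccl19 at 44.6 against 5.34 to 14, Ccl21a at 177 against 70.1 to 101 and Ccr7 at 19.0 against 5.41 to 14. Cxcr3 was 2.69 there, against 0.658 to 1.84 in the room air libraries of that day. Xcl1, made by activated T and natural killer cells, was 1.42, against 0.188 to 1.13. Cxcl13 was highest there too, at 10.4, but it was not among the genes flagged below for this library. Its room air values at PND21 were 1.02 to 2.37, and its hyperoxia values had a median of 3.27 and a mean of 4.92. The sum of T and natural killer cell markers was 117 in that library and 38.1 to 73.6 in the others, and that of B cell markers was 198, within the range of 110 to 240 of the rest. The thymus list summed to 10.2 there and to 1.26 to 6.49 in the others. That sum is mostly 1 gene, Cd8b1, which reached 9.75 in the series. The other genes of the list stayed low in all 22 libraries: Rag1 reached at most 0.672, Rag2 0.157, Dntt 0.239, Foxn1 0.222 and Psmb11 0.0488. Whether lymphoid tissue was present in the sample was not tested. The count of called genes at PND21 was 0 with and without this library.

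**Figure D4:**
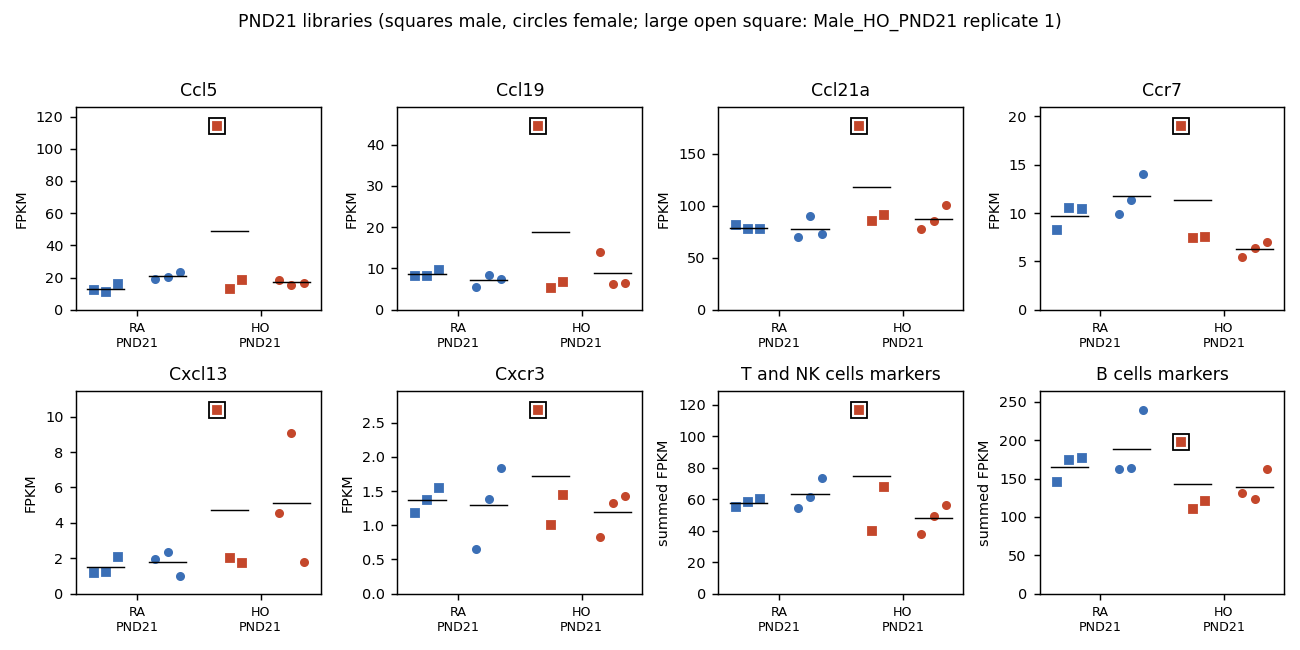
FPKM of 6 lymphoid-tissue chemokines and receptors and the summed FPKM of T and natural killer cell and of B cell markers (vertical axes from 0) in the 12 PND21 libraries; squares are male, circles female, lines group means, and the large open square marks male hyperoxia replicate 1. That library is the highest in all panels except B cell markers.

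The change between the days was tested directly, as the oxygen effect at PND21 minus that at PND7. This difference was negative for 5 genes, 11.4% of the 44 against 3.46% of all tested genes, and positive for 2, 4.55% against 7.08%. It was -1.77 for Ccl9 (SE 0.38, adjusted p = 0.0093), -1.14 for Ccl6 (SE 0.26, adjusted p = 0.013), -1.11 for Ccl2 (SE 0.26, adjusted p = 0.013) and -0.95 for Ccr1 (SE 0.24, adjusted p = 0.021). For Cxcr7 it was -0.76 (SE 0.14, adjusted p = 0.0030), with an oxygen effect of 0.49 at PND7 and -0.26 at PND21. The positive ones were Cxcr4, 0.77 (SE 0.21, adjusted p = 0.028), and Ccl21c, 0.60 (SE 0.18, adjusted p = 0.037, lost in 16 of 30 alternatives). Among the genes called at PND7, Ccr2, Ccl12, Ccl3, Cxcl17, Ccl7, Cxcl5, Cxcl12 and Cxcr5 did not pass this test. A difference between the days was not shown for them. Without the muscle-rich libraries 3 of these 7 passed, Ccl9, Ccr1 and Cxcr7, and the test was lost for Ccl2 (adjusted p = 0.071), Ccl6 (0.057), Cxcr4 (0.11) and Ccl21c (0.13), while Ppbp passed in addition.

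Each sex was also tested alone at PND7. In males 7 genes were higher, Ccl9, Cxcl17, Ccl6, Ccr1, Ccl2, Ccr2 and Cxcr7 (15.9% of the 44, with 3.37% of all genes higher), and 0 lower (5.37% of all). In females 9 were higher, among them Ccl2, Ccl9, Cxcl10, Ccl6, Ccl7, Ccr1, Ccr2 and Cxcr7 (20.5%, with 1.86% of all), and 1 lower, Cxcr4 (2.27%, with 3.95% of all). These counts rest on 2 libraries in an arm and moved with single libraries: males kept 1 call without male room air replicate 1, and females 2 without female hyperoxia replicate 1. The male Cxcl17 call was lost without either male room air library and without male hyperoxia replicate 1. When only the room air and hyperoxia groups of that sex at PND7 were fitted, each count was 0. The Cxcr7 calls were near the threshold, at adjusted p = 0.05 in males, where they were lost in 22 of 30 alternatives, and in females in 20 of 30.

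No gene of the 44 showed an oxygen effect that differed between the sexes, at PND7 (0% of all genes) or at PND21 (0.0141%), at an adjusted p under 0.05. An unadjusted p under 0.05 was reached by 3 genes at PND7 (6.82%, against 3.95% of all tested genes) and by 2 at PND21 (4.55%, against 4.68%), shares near the background. With quality weights 7 genes passed at PND21, Cxcr2, Ccl6, Ccl27a, Cx3cl1, Ccr1, Ccr2 and Cxcr6, and the share of all genes in that fit was not computed. In the main fit the 3 genes with an unadjusted p under 0.05 at PND7 were Ccl7, Cxcl10 and Ppbp. The oxygen effect in females minus that in males was 0.79 (SE 0.26), 1.49 (SE 0.61) and 1.59 (SE 0.68), each with an adjusted p of 0.997. For Ppbp the effect as the mean of sexes was 0.0044, so its estimate was negative in males and positive in females. The 2 such genes at PND21 in the main fit were Cxcr2, with a female minus male difference of -1.39 (SE 0.41, adjusted p = 0.91), and Ccr2, with -0.72 (SE 0.32). The high Cxcr2 value of male hyperoxia replicate 3, 6.53, came with the highest neutrophil marker sum of the series, 1097. Without the muscle-rich libraries Cxcl10 (2.80, adjusted p = 0.030) and Ccl4 (2.11, adjusted p = 0.0087) passed the sex test at PND7, a fit that leaves 1 library in 2 of the PND7 groups.

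No difference between females and males of the same oxygen and day passed the test in any of the 44 genes. With quality weights 1 did at PND21 in room air, Pf4, and 8 did in hyperoxia, among them Cxcr2, Pf4, Ccl27a and Ccl17. For the weighted fit no share of all genes was computed. In the main fit the share of all genes called in room air was 0.0423% at PND7 and 0.0634% at PND21, and in hyperoxia 0.0352% and 0.0634%. The lowest unadjusted p in those 4 comparisons was that of Ccl7 in hyperoxia at PND7, 0.0017, where females were higher by 0.70 (SE 0.19). Both female libraries, at 2.85 and 1.82, lay above the 3 male ones, yet its adjusted p was 1.

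Among room air libraries 17 of the 44 genes were higher at PND21 than at PND7, 38.6% against 23.6% of all tested genes, and 2 were lower, 4.55% against 25.8%. The higher ones include Ccr6 and Xcr1, which reached 1 only in PND21 libraries. The lower ones include Ccl7, which reached 1 only in hyperoxia libraries of PND7. The place of these genes among those tested is not independent of the day, and so neither are the counts. Cxcl14, an epithelial and fibroblast chemokine of steady-state tissue, led by far. It lay at 3.52, 4.44, 3.32, 2.98 and 3.96 in the 5 room air libraries at PND7 and ran from 79.5 to 130 with a median of 115 at PND21 (log2 fold change 4.54, SE 0.13, adjusted p = 1.1e-13). Oxygen left it at 3.04 to 3.87 at PND7 and 65.8 to 104 at PND21, neither called.

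Of the genes named above for lymphoid organisation, Ccl19, Cxcr5 and Ccr7 rose with age, while Cxcl13 and the Ccl21 rows were not called (log2 fold changes of -0.02 for Cxcl13, -0.10 for Ccl21a, -0.18 for Ccl21b and -0.22 for Ccl21c). Among the 6 homeostatic CC ligands 1 was higher and the median was -0.19. Ccl19 went from 1.20 to 1.97 at PND7 to 5.56 to 9.64 at PND21 (log2 fold change 1.79, SE 0.38, adjusted p = 0.00075), Cxcr5 from 0.986 to 2.11 to 4.51 to 7.40 (1.40, SE 0.16) and Ccr7 from 3.13 to 5.31 to 8.23 to 14 (1.15, SE 0.24). B cell markers were higher with age for 8 of 8 genes and T and natural killer cell markers for 11 of 11. Ccr2 rose by 1.27 (SE 0.17) and Cxcr2 by 1.09 (SE 0.22), whereas Ccr1 was not called (0.25, SE 0.17). Ccl9 rose by 1.27 (SE 0.27) and Ccl6 by 0.90 (SE 0.19), and 7 of 12 monocyte and macrophage markers were higher. The part of these cells was not tested. Ccl9 in room air at PND21, 6.88 to 10.4, overlapped the lower end of its hyperoxia range at PND7.

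Cxcl15, Cxcl16, Cx3cl1 and Cxcl12 rose with age as well, and Cxcl17, Ccl27a and Ccl11 were not called (log2 fold changes of 0.55, -0.21 and -0.01). Cxcl15 went from a median of 367 to one of 743 (log2 fold change 0.97, SE 0.18), Cxcl16 from 20.1 to 34.7 (0.75, SE 0.09), Cx3cl1 or fractalkine, made by endothelium and epithelium, from 6.80 to 14.1 (0.86, SE 0.11) and Cxcl12 from 58.0 to 73.6 (0.29, SE 0.08). Ppbp, Ccl17, Ccr6 and Xcr1 were also higher, of which Ccr6 reached 1 only in PND21 libraries and Xcr1 only in hyperoxia libraries of that day. Ccl7 and Cxcr7 were lower, by log2 fold changes of -0.33 (SE 0.13) and -0.30 (SE 0.10). These share the room air libraries with the oxygen comparison at each day. Both lower genes were among those higher in hyperoxia at PND7, and Ccl7 lost its call in 9 of 29 alternatives. Title numbers of PND21 libraries are all lower than those at PND7, and age cannot be separated from that order.

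**Figure D5:**
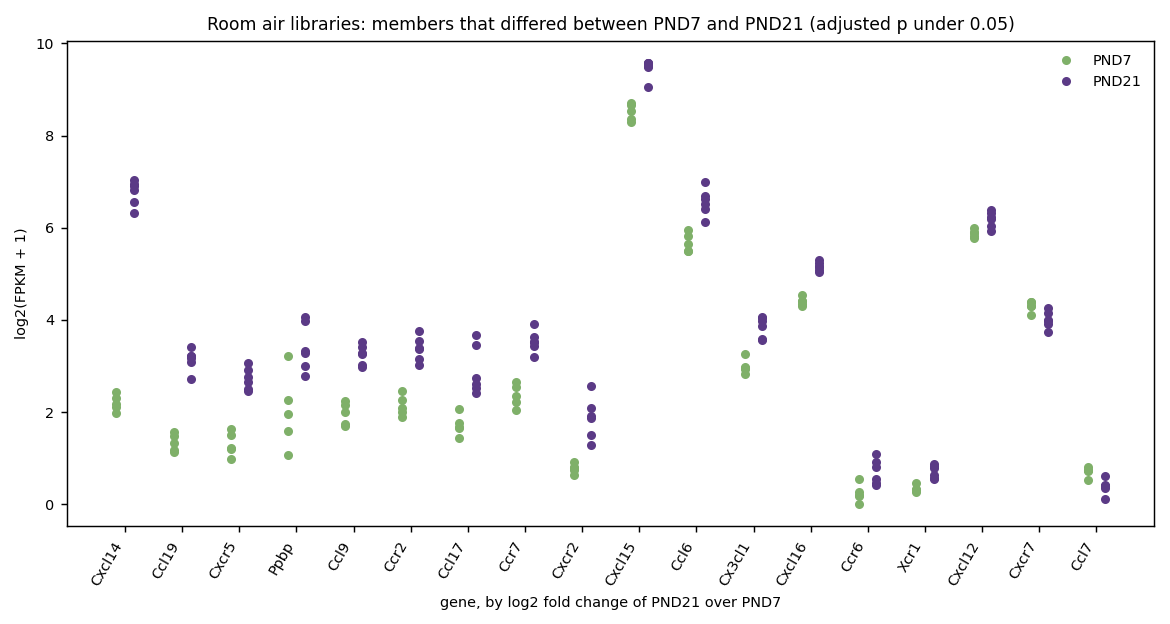
Log2(FPKM + 1) (vertical axis) of 18 genes called between PND7 (green, 5 libraries) and PND21 (purple, 6 libraries) in room air, each point 1 library, ordered by log2 fold change. Cxcl14 shows the widest gap (4.54), and the last 2 genes, Cxcr7 and Ccl7, are lower at PND21.

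Related genes were counted by 5 lists, in which Ackr3 is the gene already described as Cxcr7. Of 7 atypical and other receptors tested, 2 were higher (28.6%, against 9.79% of all genes) and 3 lower (42.9%, against 13.6%) in hyperoxia at PND7. Besides Ackr3 (Cxcr7), Cx3cr1, the fractalkine receptor of monocytes, was higher (log2 fold change 0.59, SE 0.15, adjusted p = 0.010). Ackr4, a scavenger of Ccl19 and Ccl21, was lower (log2 fold change -1.02, SE 0.14, adjusted p = 0.00017), as were Gpr182 (-0.81, SE 0.17) and Ccrl2 (-0.40, SE 0.11). Among 11 proteases and carriers that act on chemokines, Mmp12, the macrophage elastase, rose (log2 fold change 0.96, SE 0.20), Sdc1 rose (0.27, SE 0.06), and Dpp4, a peptidase that trims chemokines such as Cxcl12, fell (-0.61, SE 0.09).

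Of 14 cytokine and NF-kB genes tested, 1 was called in each direction (7.14%, below the share of all genes): Tnf was higher (log2 fold change 0.45, SE 0.16, adjusted p = 0.049) and Nfkbiz lower (-0.48, SE 0.09). Of 22 signalling genes downstream of the receptors, 2 were lower (9.09%, against 13.6% of all genes), Rgs2 (-0.50, SE 0.12) and Arrb1 (-0.46, SE 0.16). Of 14 interferon-stimulated genes 5 were higher (35.7%, against 9.79% of all genes), Oas1a, Isg15, Ifit3, Irf7 and Usp18, with log2 fold changes from 0.74 to 1.30. The sum of the list at PND7 was highest, at 417, in the library with high Cxcl10, female hyperoxia replicate 1. Room air sums were 65.1 to 92.1 and the lowest hyperoxia sum was 73.3, so the groups overlap. Whether the 5 calls hold without that library was not tested. At PND21 none of the genes of the 5 lists was called.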

How the data were processed

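The deposited table gives gene values for 22 mouse lung libraries that the authors made with TopHat2 2.0 and Cufflinks 2.0 on build mm10, per the submitters' processing notes. The deposited values are taken as FPKM from the tools the authors used and from the values themselves, since no header states the unit. The deposited values appear quantile normalized, judged from the name of the table and near-identical ranked values, and the authors' steps for this are not given in the sources used here. Depth is unknown, so no counting interval is given, and the number of libraries limits the precision.

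Here log2(FPKM + 1) was fitted with limma 3.58.1 in R 4.3.3, with 1 mean for each of 8 groups, an intensity trend and 14 two-sided contrasts, after a filter of at least 1 in at least 2 libraries. The p-values were adjusted by Benjamini-Hochberg over all 14200 genes and the script was tested on simulated data. Errors are SE for log2 fold changes. Members and lists were chosen with earlier results of these data known. Classes, motifs and clusters were assigned after the values were available, and chemokine genes were dropped from marker lists.

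A single gene is not reported here, though counts include it. Values per library are given for 11 genes, among the called members with the largest oxygen effect among those with a group mean of at least 2, and for others where a result turned on them, chosen after their values were seen. Names outside the set come from the lists, up to 4 of each by adjusted p, with the defining genes of marker lists; Usp18 was added after its values were seen. Alternatives were another pseudocount, other filters, no trend, quality weights, a title number term, fits of the contrast's groups alone, and leaving out each library or the muscle-rich ones. The title number term had 2 levels, PND21 libraries numbered 10 or more against all others. Replicate numbers follow deposit order and pair nothing. Symbols were matched to GENCODE M21, where 58 of 59 identifiers were found. Promoter sequences are from RefSeq on build GRCm38.p6.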

Additional observations from a re-analysis of the deposited data

Results flagged for a closer look

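Each gene was examined in the 4 sets of 5 or 6 libraries that share oxygen and day, sexes together, for a library far from its neighbours by Dixon's criterion. Of 172 sets, 27 had such a library. The criterion was applied to FPKM without a logarithm. Its rate of 1 in 20, or 8.6 sets, holds for independent, normally distributed values. Whether these values are so distributed was not tested, so the 27 have no expected number to be set against.

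Male hyperoxia replicate 1 at PND21 accounted for 7 of them, all high: Ccl5 at 114, Ccl19 at 44.6, Ccl21a at 177, Ccr7 at 19.0, Cxcr3 at 2.69, Ccr6 at 1.57 and Xcl1 at 1.42. Male hyperoxia replicate 3 at PND21 was high for Ccr2 (20.4), Cxcr2 (6.53) and Cxcr6 (11.2). In females of that day and exposure, replicate 1 was high for Cxcl17 (49.9) and replicate 2 for Cxcl1 (1.60). In room air at PND21, female replicate 1 was low for Cxcl15 (533).

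At PND7 male room air replicate 1 was high for 5 genes: Ccl5 (10.9), Ccl8 (0.779), Cxcl10 (2.76), Cxcl9 (1.97) and Xcl1 (0.747). Female room air replicate 3 was high for Ccl21a (109), Ccl21b (49.5), Ccl21c (26.7) and Cxcl5 (1.01) and low for Ccl2 (0.838). Male hyperoxia replicate 1 was high for Ccl11 (15.2), Ccl17 (15.3) and Cxcl17 (60.7), and female hyperoxia replicate 1 for Cxcl10 (7.97).

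The oxygen effect differed between the days in 7 genes by the test of the difference itself (PND21 minus PND7, log2): Ccl9 -1.77, Ccl6 -1.14, Ccl2 -1.11, Ccr1 -0.95, Cxcr7 -0.76, Cxcr4 0.77 and Ccl21c 0.60.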

How the results depend on the processing

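Over the 59 gene results that passed a test, 1577 alternative fits kept the call, 187 lost it and 0 reversed; 25 results kept it in every fit run. Counts of called genes moved as follows, and the cause was not tested. Shares of all genes were not computed for the alternative fits. With quality weights the count was 19 for oxygen at PND21 (main 0), 5 and 17 in males and females there, 16 in males at PND7 (main 7), 7 for the oxygen by sex test at PND21, and 1 and 8 for females against males at PND21 in room air and in hyperoxia. Without the muscle-rich libraries it was 2 in males at PND7, 1 at PND21, 2 for oxygen by sex at PND7 and 4 between days (main 7). The title number term gave 1 at PND21 (Cxcr6). Fits of the contrast's groups alone gave 1 at PND21 (Ppbp) and 0 in each sex at PND7. Without a filter on low values females at PND7 had 6 (main 9 higher and 1 lower).

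Leaving out each library in turn gave 10 to 19 genes for oxygen at PND7 (main 16; 10 without male room air replicate 2), 1 to 8 in males, 2 to 12 in females, 4 to 8 between days (4 without male room air replicate 1 at PND7), 0 to 1 for oxygen by sex at PND7 (Cxcl10, without female hyperoxia replicate 2), 15 to 22 for age, and 0 in the other 8 comparisons. Where this left 1 library in a group, it was taken to vary like the others. No paired analysis was possible because the labels give no shared replicate numbers.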
